A study of Mus musculus with 4 samples.

Results

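Named pseudogenes are gene copies whose symbol carries the suffix -ps. In these mouse livers, 59 of them had at least 20 total gene reads summed over the 4 libraries. They were taken from 1316 rows with such a name among 35522 rows in all; 1033 of the 1316 had no read and 224 had 1 to 19. The 3 with the fewest reads that entered were Rpl9-ps6 with 20, Tes3-ps with 22 and Bhmt-ps1 with 23, a count shared with Hmga2-ps1 and Rpl36-ps3. Just below the minimum were Gstm2-ps1 and Pcna-ps2 with 18 reads each and Mup-ps2 with 17, a count shared with Olfr1372-ps1. The members were chosen by their summed reads, so having reads is no result.

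A processed pseudogene arises when an mRNA is copied back into the genome, usually without introns and without the promoter of its parent. An unprocessed pseudogene arises by duplication of a stretch of the genome and can keep introns and parts of a promoter. Highly transcribed genes such as those of ribosomal proteins have left many processed copies, and short reads from the parent mRNA can match a copy as well as the parent. A read is called unique here where the deposited tables count it as such, and the share of unique reads stands beside each level.

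Livers of C57BL/6 mice treated with diethylnitrosamine (DEN), a liver carcinogen that alkylates DNA, were sequenced 24 hr after treatment. There were 2 libraries of the genotype Control and 2 of the genotype Dph1 KO, all from DEN-treated mice. Dph1 encodes an enzyme of diphthamide synthesis, the modification of a histidine in elongation factor eEF2. The sources used here do not say in which cells or in which part of the gene Dph1 was deleted, nor the age or sex of the mice, nor whether each library is 1 animal. The p-values therefore rest on the spread among 2 libraries per genotype, and that spread may be technical.

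Total gene reads ran from 19474596 to 21137358 per library, of which 89.3% to 90.2% were unique. The Dph1 row held 1292 and 1228 reads in Control against 421 and 689 in Dph1 KO, a log2 fold change of -1.49 ± 0.26 (SE; adjusted p = 0.0107, edgeR quasi-likelihood test with Benjamini-Hochberg adjustment), so the labels matched the targeted gene. Summed hepatocyte marker levels were 70601 and 88294 CPM (counts per 1000000 mapped gene reads) in Control against 55661 and 58087 in Dph1 KO, with 1 of 6 markers called lower. Called lower as well were 2 of 4 stellate and fibroblast markers, 1 of 4 tested macrophage markers and 1 of 2 tested B and plasma cell markers. No marker was called higher, and of the 4 endothelial markers none was called. Over all rows tested, 7.47% were called lower. The stellate and fibroblast markers summed to 94.4 and 113 CPM in Control against 102 and 90.2 in Dph1 KO, so their groups overlapped. Cholangiocyte markers summed to 5.62 to 12.1 CPM. The part of these levels in the members' changes was not tested. In bulk liver, fewer cells of a type and less RNA per cell cannot be told apart.

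The 59 members lay on 20 chromosomes and held 75537 reads, or 881 to 973 of every 1000000 total gene reads in each library. Of these reads 28989, or 38.4%, were unique. The median member had 99.8% unique reads, so most members were read at positions of their own, while a few held most of the reads that were not unique. Rps6-ps4 alone held 43.0% of the members' reads. Under 10% of the reads were unique in 10 members, which together held 41620 reads. By comparison, 1.76% of the 14227 rows with at least 20 reads had so low a share. At least 95% of the reads were unique in 37 members, and in 88.0% of those rows.

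Of the 13 pseudogenes of ribosomal protein genes, 7 had under 10% unique reads, as did 3 of the 46 other members. These 3 were 2 chemoreceptor pseudogenes, Vmn2r-ps16 and Vmn2r-ps15, and Mug4-ps of the murinoglobulin family, named after their values were seen. RefSeq lists 34 members as pseudogenes, 21 as transcribed pseudogenes and 4 (Scnm1-ps, B3gnt9-ps, Rpl31-ps12 and Rpl34-ps1) as protein coding, despite their names. GENCODE types 24 as processed and 25 as unprocessed copies. For 53 members the tables annotate no exon and give a TPM (transcript share by length) of 0 in every library, so only their gene reads carry a signal.

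The sequences of some pairs show how little can separate a copy from the coding gene. Not every called member was so close. Spr-ps1, not shown, differed from Spr at 21 of 90 bases and aligned to it at 80.9% identity over 11.5% of its transcript. The alignment of Spr-ps1 was 335 bases long and its transcript 2892, while its counted row spans only 989 bases. Each pair is 90 bases, 5′ to 3′, taken from GENCODE M21 transcripts (GRCm38) inside the coding sequence, with differences in capitals. The first shows an identical pair, the others 5 copies whose levels differed at least 10-fold between genotypes.
Rps6-ps4 (chr2:75191733-75191822, minus strand) and Rps6 alike: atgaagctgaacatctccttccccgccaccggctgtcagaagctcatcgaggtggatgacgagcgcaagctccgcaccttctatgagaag
Rps18-ps3 (chr8:107263024-107263113, minus strand): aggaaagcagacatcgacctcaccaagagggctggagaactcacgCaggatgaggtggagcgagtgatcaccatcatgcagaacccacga
Rps18: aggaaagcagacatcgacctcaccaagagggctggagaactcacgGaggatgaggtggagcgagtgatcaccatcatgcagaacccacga
Rpl35a-ps2 (chr1:181242121-181242210, minus strand): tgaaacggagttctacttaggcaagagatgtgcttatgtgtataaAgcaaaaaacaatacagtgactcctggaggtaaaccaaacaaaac
Rpl35a: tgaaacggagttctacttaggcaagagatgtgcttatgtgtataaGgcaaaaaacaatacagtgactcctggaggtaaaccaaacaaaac
Rab11b-ps2 (chr19:7398882-7398971, minus strand): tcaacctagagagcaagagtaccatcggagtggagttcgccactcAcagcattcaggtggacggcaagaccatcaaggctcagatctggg
Rab11b: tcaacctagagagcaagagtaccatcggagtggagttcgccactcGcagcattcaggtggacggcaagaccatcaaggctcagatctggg
Glud-ps (chr7:125075877-125075966, plus strand): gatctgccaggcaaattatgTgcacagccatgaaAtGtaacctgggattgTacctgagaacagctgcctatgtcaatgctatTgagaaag
Glud1: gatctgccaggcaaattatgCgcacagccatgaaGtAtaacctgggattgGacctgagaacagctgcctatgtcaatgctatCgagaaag
Mrpl48-ps (chr4:88599361-88599450, minus strand): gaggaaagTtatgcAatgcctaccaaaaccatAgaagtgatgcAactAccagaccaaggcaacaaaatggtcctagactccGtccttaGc
Mrpl48: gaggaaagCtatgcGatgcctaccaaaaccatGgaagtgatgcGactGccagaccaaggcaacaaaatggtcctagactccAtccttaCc
The windows of Rps18-ps3, Rpl35a-ps2 and Rab11b-ps2 hold 1 difference each, that of Glud-ps 5 and that of Mrpl48-ps 7. Where several windows of a pair were possible, the one with the most differences is shown.

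Over whole transcripts, 40 members aligned to a coding transcript of another locus over at least 50% of their length. Identity and the unique share showed no common order (Spearman's rho -0.02 over 40 members, which share libraries and in part parents). Of the 14 members with at least 99% identity, 4 had under 10% unique reads and 7 had at least 95%. Some rows reach beyond the aligned sequence: the row of Atp6v0c-ps2 spans 1133 bases and its transcript 465, and that of Rab11b-ps2 spans 1732 bases and its transcript 654.

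**Figure D1:**
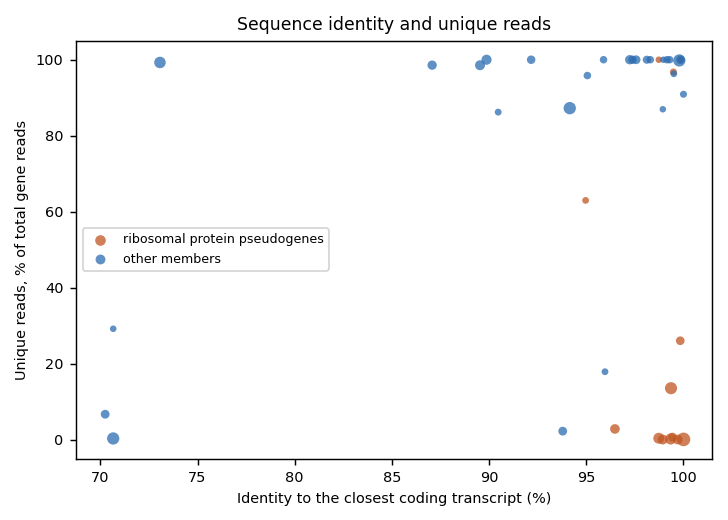
Unique reads as a percentage of total gene reads (vertical axis) against the identity of the member's transcript to the closest coding transcript (horizontal axis, %), for 40 members; point area grows with the log of total reads. Members of 99% identity and more stand both near 0% and near 100% unique reads, and ribosomal protein pseudogenes lie mostly at the bottom right.

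The question the design puts to these rows is whether their levels differed between Control and Dph1 KO livers. After the filter on low counts, 43 of the 59 members were tested among 13303 rows. Higher in Dph1 KO were 8 and lower were 9, in edgeR's quasi-likelihood test with Benjamini-Hochberg adjustment over all rows. Over all rows tested, 12.3% were called, 4.86% higher and 7.47% lower. A row can pass the filter through its high group alone, so the share among the tested members is not read against these. With all 59 tested among 14227 rows, 8 were higher and 10 lower, where 11% of the rows were called. The added row was Rpl3-ps1, named after its values were seen. The median log2 fold change of the 43 was 0.00, against 0.04 over all rows tested, with 21 above 0 and 22 below.

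The group means differed at least 10-fold in 9 members, 8 with Control higher and 1 with Dph1 KO higher. Among the 14227 rows with at least 20 reads, 0.724% differed as much, 0.541% with Control higher and 0.183% with Dph1 KO higher. GENCODE types 8 of the 9 as processed copies and has no entry for Rab11b-ps1. The libraries of the genotypes did not overlap in 37 of the 59 members, against 66.0% of rows with at least 20 reads, so separation as such was no more common among the members.

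**Figure D2:**
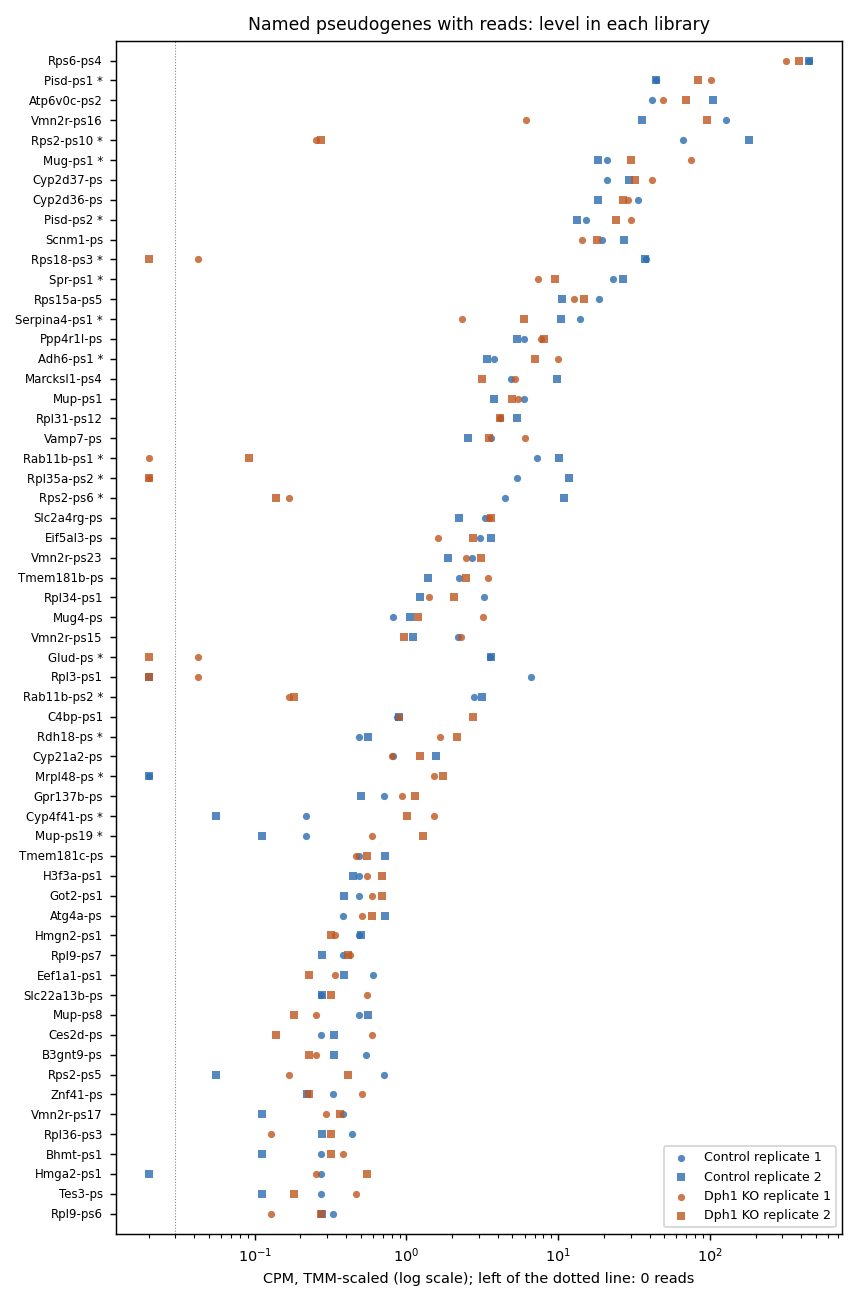
Level of each of the 59 members in the 4 libraries, in CPM scaled by TMM (log axis), ordered by total reads; an asterisk marks the 17 members called, and points left of the dotted line had 0 reads. In 9 rows the groups stand at least 10-fold apart, and in Rpl3-ps1 a single Control library stands alone.

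Ribosomal protein pseudogenes gave 4 of the 9 lower calls and none of the higher ones; 8 of the 13 were tested. Rps2-ps10, a copy of the gene of a small-subunit protein, lies on chromosome 18 (61259039 to 61259987) inside Pde6a on the opposite strand. It held 1226 and 3282 reads in Control against 6 and 6 in Dph1 KO. Unique reads showed the same split, with 188 and 422 against 1 and 0. Both Control libraries were far above both Dph1 KO libraries, and they differed from each other, at 66.6 and 182 CPM. The mean was 125 ± 81.9 CPM (SD, n = 2) in Control and 0.264 ± 0.0142 CPM (SD, n = 2) in Dph1 KO, a 470-fold difference. The fit gave a log2 fold change of -8.85 ± 0.59 (SE; edgeR quasi-likelihood, adjusted p = 1.22e-05), and -9.23 ± 0.71 with unique reads alone (adjusted p = 7.22e-05). Without Control replicate 2 it was -7.95.

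Pde6a, the host of Rps2-ps10, is a phosphodiesterase gene of photoreceptors and was named after its values were seen. It held 124 and 231 reads in Control against 11 and 19 in Dph1 KO, again with no overlap. These reads all lay in introns, 355 in Control and 30 in Dph1 KO, with none in exons. The fall was -3.87 ± 0.42 on the log2 scale (edgeR quasi-likelihood, adjusted p = 0.000581). The sources used here do not say whether the counting used the strand, so the reads of the pseudogene and of its host intron cannot be told apart with certainty.

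Rps18-ps3, on chromosome 8 (107262746 to 107263269), held 702 and 675 reads in Control against 1 and 0 in Dph1 KO. Its Control libraries were alike, at 38.2 and 37.5 CPM. Only 2 of its 1378 reads were unique, 1 in each genotype. The ratio of the groups was 1721, with a counting interval of 308 to 68038 (95%, Clopper-Pearson), and the call had an adjusted p of 4.96e-07 (edgeR quasi-likelihood). Its reads were thus in all but 2 cases reads that also matched elsewhere.

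Rpl35a-ps2, on chromosome 1 (181241944 to 181242382), copies the gene of a large-subunit protein. It held 98 and 213 reads in Control and none in Dph1 KO, at least 130-fold higher in Control when the empty group is set to the floor of 3 counts in all (edgeR quasi-likelihood, adjusted p = 0.000221). None of its reads was unique, which allows a unique share of up to 0.965%. Rps2-ps6, on chromosome 14 (76236647 to 76237574), held 82 and 198 reads in Control against 4 and 3, with 4 unique reads in each genotype. Its level was 50-fold higher in Control, with a log2 fold change of -5.60 ± 0.57 (SE; edgeR quasi-likelihood, adjusted p = 0.000399), and -4.81 without Control replicate 2 or -4.88 with a GC content and length offset. In both, as in Rps2-ps10, Control replicate 2 was above Control replicate 1, and in both the genotypes did not overlap.

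Rpl3-ps1, on the X chromosome (13202518 to 13203837), differed from these. It held 122 reads in 1 Control library, 0 in the other, and 1 and 0 in Dph1 KO. Of the 122 reads 31 were unique. The groups overlap, and the ratio of 153 (counting interval 26.9 to 6073) rests on that single library. It was left out by the filter and called only when all 59 were tested (edgeR quasi-likelihood, adjusted p = 0.0425).

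Other ribosomal protein copies held many reads with no call. Rps6-ps4, on chromosome 2 (75188586 to 75191850), held 8328 and 8106 reads in Control against 7550 and 8473 in Dph1 KO, of which 3, 4, 1 and 4 were unique. Its log2 fold change was -0.35 ± 0.25 (edgeR quasi-likelihood, adjusted p = 0.33). Its 750-base transcript is identical to Rps6 along its whole length, as the window above shows in part. Rps15a-ps5 held 192 to 340 reads with 1 unique read in each library, and Rpl31-ps12 held 76 to 97 with no unique read, which allows a share of up to 0.833%. Neither differed by more than the spread between libraries (log2 fold changes -0.08 and -0.19; adjusted p = 0.848 and 0.632, edgeR quasi-likelihood).

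Copies of genes outside the ribosomal protein group were also far apart, and almost wholly by unique reads. Rab11b-ps1 copies the gene of a small GTPase of recycling endosomes and lies on chromosome 1 (191388617 to 191389459), inside Ppp2r5a on the opposite strand. It held 134 and 181 reads in Control against 0 and 2 in Dph1 KO, of which 127, 169, 0 and 2 were unique. The Control libraries were both above the Dph1 KO libraries, by a ratio of 197 (counting interval 54.1 to 1633; edgeR quasi-likelihood, adjusted p = 4.18e-05). Its host Ppp2r5a, named after its values were seen, held 1166 and 977 reads in Control against 2171 and 1570 in Dph1 KO and was not called (log2 fold change 0.48; edgeR quasi-likelihood, adjusted p = 0.148). The host thus lay in the direction opposite to the copy.

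Rab11b-ps2, on chromosome 19 (7397442 to 7399173), held 51 and 57 reads in Control against 4 and 4 in Dph1 KO, every read unique. It was 16.9-fold higher in Control, with a log2 fold change of -4.03 ± 0.45 (SE; edgeR quasi-likelihood, adjusted p = 0.000729). Glud-ps, on chromosome 7 (125075348 to 125076497), held 65 and 65 reads in Control against 1 and 0 in Dph1 KO, every read unique. The ratio was 163 (counting interval 28.7 to 6468; edgeR quasi-likelihood, adjusted p = 0.000172). Its closest coding gene, Glud1 of glutamate dehydrogenase at 97.6% identity, was not called and lay the other way, with 12447 and 12226 reads in Control against 21760 and 18711 in Dph1 KO (log2 fold change 0.39; edgeR quasi-likelihood, adjusted p = 0.301).

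Mrpl48-ps was the 1 member 10-fold higher in Dph1 KO. It copies the gene of a mitochondrial ribosomal protein and lies on chromosome 4 (88598984 to 88599875). It held 0 and 0 reads in Control against 36 and 38 in Dph1 KO, every read unique. That is at least 19.7-fold higher in Dph1 KO when the empty group is set to the floor of 3 counts in all (edgeR quasi-likelihood, adjusted p = 0.00181). Its level in Dph1 KO was 1.63 ± 0.15 CPM (SD, n = 2).

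**Figure D3:**
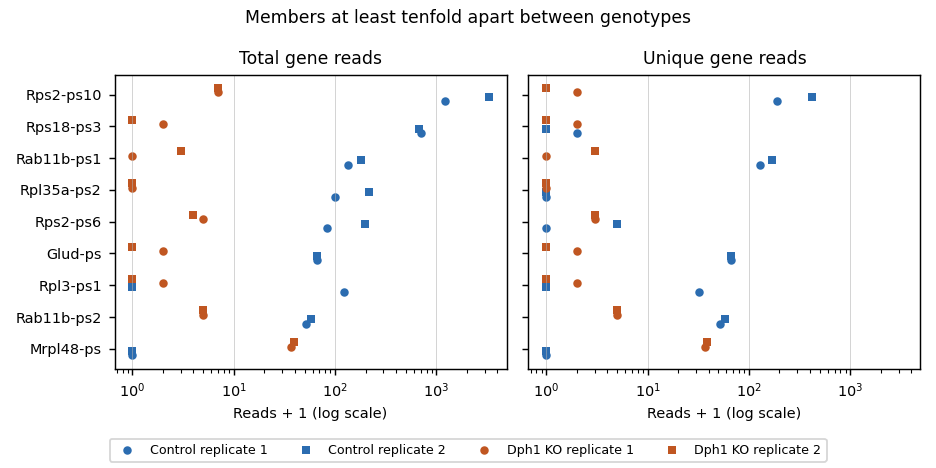
Total gene reads (left) and unique gene reads (right) of the 9 members at least 10-fold apart, as reads plus 1 on a log axis, with 1 point for each library. The genotypes stand apart in both panels for Rps2-ps10, Rab11b-ps1, Glud-ps, Rab11b-ps2 and Mrpl48-ps, while Rps18-ps3, Rpl35a-ps2 and Rps2-ps6 have almost no unique reads.

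The genes these copies are named after did not show such differences. For 29 members the tables have a row of the parent symbol, 24 genes in all, of which 23 were tested. None of the 23 was called by edgeR's quasi-likelihood test, although 5 had an unadjusted p under 0.05; DESeq2 called 3, limma-voom 0, and the fit with a GC content and length offset 2, Pisd and Rps18. Parent log2 fold changes ran from -0.83 to 0.75. Rps2 held 8403 and 5219 reads in Control against 6846 and 10491 in Dph1 KO, and Rps18 held 3369 and 3166 against 4391 and 4913. Their log2 fold changes were 0.04 and 0.19 (edgeR quasi-likelihood, adjusted p = 0.938 and 0.569). Mrpl48 held 316 and 343 reads against 340 and 313, where its copy went from none to 36 and 38. In 20 pairs with both rows tested, 15 had the same sign. These pairs are not independent: Pisd, Rps2 and Rab11b enter more than once, and a copy can share reads with its parent.

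**Figure D4:**
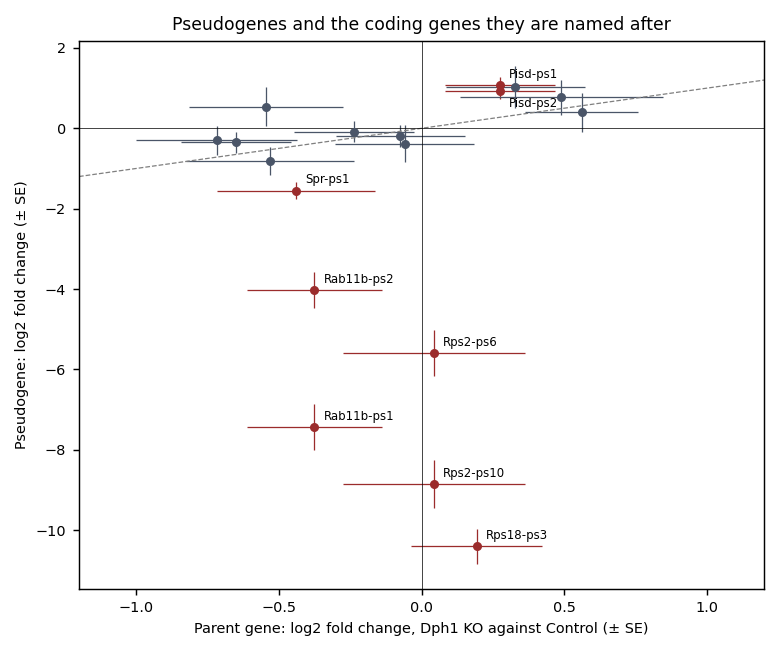
Log2 fold change of the member (vertical axis) against that of its parent gene (horizontal axis), Dph1 KO against Control, with SE bars, for the pairs with both rows tested; red marks called members and the dashed line marks equal values. Rpl35a-ps2 and Mrpl48-ps are left out because 1 group had 0 reads. Parents stay within 1 log2 unit of 0, while Rps18-ps3 and Rps2-ps10 lie near -10 and -9.

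The share of unique reads in Rps18, Rps2 and Rpl35a differed between libraries, and was lowest in the library in which Rps18-ps3, Rps2-ps10 or Rpl35a-ps2 held the most reads. Rps18 had 75 and 76 unique reads in Control, 2.23% and 2.40% of its reads, and 1291 and 1561 in Dph1 KO, 29.4% and 31.8%. The low shares stand in the 2 libraries in which Rps18-ps3 held reads. With unique reads alone Rps18 was called, with a log2 fold change of 3.92 ± 0.24 (SE; edgeR quasi-likelihood, adjusted p = 7.33e-06), against 0.19 with total reads. Also called with unique reads were Atp6v0c (-2.58; adjusted p = 0.045) and Rpl36 (-0.99; adjusted p = 0.047), both by edgeR quasi-likelihood. The call of Atp6v0c rests on Control replicate 1, with 855 unique reads against 88 in Control replicate 2 and 87 and 108 in Dph1 KO. Rps2 had 3034, 99, 2144 and 3442 unique reads in Control replicates 1 and 2 and Dph1 KO replicates 1 and 2. The low value, 1.90% of its reads, stands in Control replicate 2, in which Rps2-ps10 held 3282 reads. In Control replicate 1, where Rps2-ps10 held 1226 reads, the unique share of Rps2 was not low, at 36.1%. It was 31.3% and 32.8% in Dph1 KO, where Rps2-ps10 held 6 reads in each library.

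Rpl35a had 489, 46, 817 and 757 unique reads in the same order, lowest where Rpl35a-ps2 held 213 reads. The unique share of Rab11b was 29.6% and 29.1% in Control against 38.7% and 38.0% in Dph1 KO. That of Mrpl48 was 78.2% and 76.7% in Control against 70.3% and 72.8% in Dph1 KO, lower in the 2 libraries with reads in its copy. For Atp6v0c, a subunit gene of the vacuolar proton pump, 855 reads were unique in Control replicate 1 and 88, 87 and 108 in the others. Its copy Atp6v0c-ps2 had the fewest reads there, 766 against 1881, 1157 and 1524.

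Among 22 parents with at least 100 reads in every library, the unique share differed by 10 points or more between libraries in Rps2, Rps18 and Rpl35a; 0.979% of 8576 rows with as many reads differed by as much. The 10-point limit was chosen after these values were seen. The median range was 3.99 points over the 22 parents and 0.14 points over all those rows. The other parents moved by 0.02 to 9.61 points, with Rab11b, Atp6v0c and Mrpl48 the widest of them at 9.61, 7.97 and 7.87 points. Spr, whose copy was called, moved by 1.78 points, and H3f3a, whose copy was not, by 5.18.

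**Figure D5:**
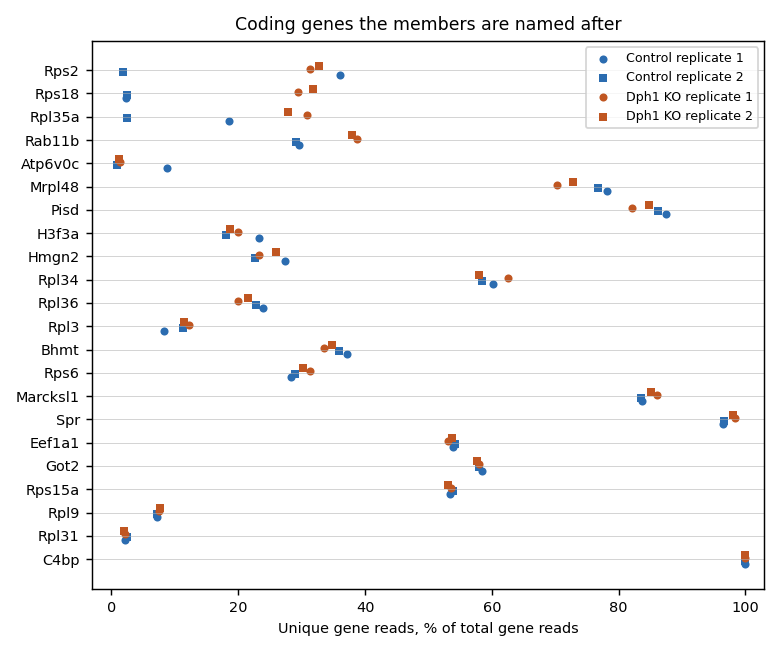
Unique gene reads as a percentage of total gene reads in each library (horizontal axis) for 22 parent genes with at least 100 reads in every library, ordered by the range between libraries. Rps18 stands at 2.23% and 2.40% in Control and at 29.4% and 31.8% in Dph1 KO, and Rps2 at 1.90% in Control replicate 2 only.

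The reads of a copy could be a large or a small part of what parent and copy held together. Rps6-ps4 held 94.9% to 96.3% of the sum with Rps6 in each library, so the coding gene row had only 324 to 452 reads. The 3 members named after Rps2 held 13.6% and 40.0% of the sum in Control and 0.2% in each Dph1 KO library. Rps18-ps3 held 17.2% and 17.6% of the sum in Control. When the reads of every member were added to its parent, a setting chosen after seeing the data, none of the 24 parents was called. Copies below the minimum of reads were not added. The summed reads of Rps2 were 9724 and 8700 in Control against 6860 and 10509 in Dph1 KO, a log2 fold change of -0.39 (edgeR quasi-likelihood, adjusted p = 0.355), where the parent row alone gave 0.04. That of Rps18 went from 0.19 to -0.08 (adjusted p = 0.824, edgeR quasi-likelihood).

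The unprocessed copies changed by smaller steps, and 7 of the 8 higher calls were among them; 21 of the 25 were tested, with 2 lower and no 10-fold difference. Pisd-ps1 and Pisd-ps2 copy the gene of phosphatidylserine decarboxylase, a mitochondrial enzyme that makes phosphatidylethanolamine. Pisd-ps1, on chromosome 11 (3124021 to 3131945), held 816 and 794 reads in Control against 2397 and 1835 in Dph1 KO, 87.2% of them unique. Pisd-ps2, on chromosome 17 (3064318 to 3084183), held 280 and 239 against 711 and 526, every read unique. Neither overlapped between genotypes. The log2 fold changes were 1.07 ± 0.21 and 0.93 ± 0.21 (SE; edgeR quasi-likelihood, adjusted p = 0.0158 and 0.0239). Without Control replicate 1 the adjusted p-values were 0.0897 and 0.0704, and without Control replicate 2 they were 0.119 and 0.185, with fold changes of the same sign.

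Pisd itself held 892 and 867 reads in Control against 1392 and 1266 in Dph1 KO, a log2 fold change of 0.27 ± 0.19 with no call (edgeR quasi-likelihood, adjusted p = 0.329). The difference between parent and copies was not tested. With the copies added, the 3 rows together gave 0.74 ± 0.22 (edgeR quasi-likelihood, adjusted p = 0.0501).

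Mug-ps1 belongs to the murinoglobulins, liver-made protease inhibitors of the plasma, and its row spans 72514 bases of chromosome 6. It held 388 and 328 reads in Control against 1784 and 663 in Dph1 KO, 97.9% of them unique. Both Dph1 KO libraries were above Control but differed from each other, at 75.6 and 30.3 CPM. The fit gave a log2 fold change of 1.43 ± 0.35 (SE; edgeR quasi-likelihood, adjusted p = 0.0309), and 1.11 with a GC content and length offset (adjusted p = 0.0505). Without Dph1 KO replicate 1 it was 0.65, still called (adjusted p = 0.0328). Mug1, named after its values were seen, gave 0.05 (edgeR quasi-likelihood, adjusted p = 0.919).

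Adh6-ps1 copies an alcohol dehydrogenase gene. It held 70 and 61 reads in Control against 237 and 153 in Dph1 KO, every read unique (log2 fold change 1.24 ± 0.27; edgeR quasi-likelihood, adjusted p = 0.0218). Rdh18-ps, of the retinol dehydrogenase family, held 9 and 10 reads against 39 and 47 (1.85 ± 0.42; edgeR quasi-likelihood, adjusted p = 0.0239). Its closest coding gene Rdh19, 92.2% identical and named after its values were seen, held 2 and 0 reads in Control against 19 and 25 in Dph1 KO and was also higher (edgeR quasi-likelihood, adjusted p = 0.0165). All 3 rows kept the genotypes apart, Rdh18-ps and Rdh19 at low counts. Rdh18-ps missed the threshold without Control replicate 1 (adjusted p = 0.0932), and both it and Adh6-ps1 missed it without Control replicate 2 (0.0782 and 0.0916).

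Both lower calls among unprocessed copies were read by unique reads alone. Spr-ps1 copies the gene of sepiapterin reductase, which makes tetrahydrobiopterin, and lies on chromosome 6 (85154983 to 85155971). It held 424 and 478 reads in Control against 175 and 208 in Dph1 KO, or 24.8 ± 2.49 and 8.46 ± 1.48 CPM (SD, n = 2 each). The fit gave a log2 fold change of -1.55 ± 0.22 (SE; edgeR quasi-likelihood, adjusted p = 0.00322), while Spr gave -0.44 with no call (adjusted p = 0.277). Serpina4-ps1, a copy of a serine protease inhibitor gene on chromosome 12, held 257 and 188 reads in Control against 55 and 130 in Dph1 KO (-1.57 ± 0.37; edgeR quasi-likelihood, adjusted p = 0.0275), and gave -2.37 without Dph1 KO replicate 2 but -1.02 when Dph1 KO replicate 1 was left out. In both the genotypes did not overlap.

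Of the 4 cytochrome P450 copies, 1 was higher in Dph1 KO and none lower. Cyp4f41-ps, of a fatty acid hydroxylase family, held 4 and 1 reads in Control against 36 and 22 in Dph1 KO (log2 fold change 3.15 ± 0.62; edgeR quasi-likelihood, adjusted p = 0.0162), and 4.37 without Control replicate 1 or 2.51 without Control replicate 2 (adjusted p = 0.00392 and 0.0629). Cyp2d37-ps held 387 and 526 against 982 and 698, with no overlap but no call (0.55; adjusted p = 0.119, edgeR quasi-likelihood; with the GC content and length offset 0.83 and adjusted p = 0.0473, and without Dph1 KO replicate 2 0.75 and 0.0112). Cyp2d36-ps held 619 and 327 against 679 and 588, and its groups overlapped (0.10; adjusted p = 0.81, edgeR quasi-likelihood).

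Cyp21a2-ps copies the gene of steroid 21-hydroxylase, an enzyme of the adrenal cortex. It held 15 and 28 reads in Control against 19 and 27 in Dph1 KO, with overlapping groups (log2 fold change -0.22; edgeR quasi-likelihood, adjusted p = 0.754). Cyp21a1, its closest coding gene at 97.4% identity and named after its values were seen, held 35 and 724 against 18 and 31 and was called lower (-4.27; edgeR quasi-likelihood, adjusted p = 0.029). The 3 adrenal cortex markers (Cyp11b1, Cyp11a1 and Star) summed to 0.435 and 30.5 CPM in Control and to 0.424 and 0.686 CPM in Dph1 KO, highest in the same library as Cyp21a1. The copy was also highest there, at 1.56 CPM against 0.805 to 1.23 in the other libraries, but on few reads, 28 against 15 to 27. Its row overlaps Tnxb on the opposite strand over 185 bases. Tnxb held 963 and 1165 reads in Control against 659 and 636 in Dph1 KO, and its part in the reads of the copy was not tested.

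Major urinary proteins are pheromone carriers secreted by the liver. Of their 3 copies, Mup-ps19 held 4 and 2 reads in Control against 14 and 28 in Dph1 KO (log2 fold change 2.45 ± 0.65; edgeR quasi-likelihood, adjusted p = 0.0388). Mup-ps1 held 110 and 68 against 128 and 108 with no call (0.09; adjusted p = 0.853, edgeR quasi-likelihood), and Mup-ps8, with 9 and 10 against 6 and 4, was not tested. The row of Mup-ps1 overlaps Mup7 on the opposite strand over 4007 bases. Mup7 held 29705 and 23300 reads in Control against 36522 and 7398 in Dph1 KO, and its part in the reads of Mup-ps1 was not tested. The call of Mup-ps19 rests on 6 reads in Control, and it was lost with the GC content and length offset (adjusted p = 0.0597) and without Control replicate 1, Control replicate 2 or Dph1 KO replicate 2 (0.0578, 0.183 and 0.0843).

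Among the rows with the most reads that were not called, Vmn2r-ps16 varied most within genotypes. It carries the name of a vomeronasal receptor copy and spans 160177 bases of chromosome 4. It held 2350 and 638 reads in Control against 144 and 2107 in Dph1 KO, of which 1, 4, 5 and 5 were unique. The groups overlapped, and the log2 fold change of -0.67 ± 0.87 had an adjusted p of 0.603 (edgeR quasi-likelihood). Without Dph1 KO replicate 2 it became -3.74 and without Control replicate 2 -1.32, both past the threshold (adjusted p = 0.00151 and 0.0146), and without either of the other two libraries its sign turned, to 0.52 and 0.25. Its closest coding gene Vmn2r120, at 70.7% identity and named after its values were seen, had 0 reads in every library. That match is an alignment of 242 bases with a transcript of 377 bases, a small part of the row. The row of Vmn2r-ps16 also overlaps 4 rows on the same strand and 2 on the opposite strand. Of these Gm13251 held the most reads, 78 over the 4 libraries. Their part in the reads of Vmn2r-ps16 was not tested.

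Atp6v0c-ps2 held 766 and 1881 reads in Control against 1157 and 1524 in Dph1 KO, 99.8% of them unique, with overlapping groups (log2 fold change -0.30; edgeR quasi-likelihood, adjusted p = 0.572). Scnm1-ps, which RefSeq lists as protein coding, held 360 and 485 reads in Control against 338 and 393 in Dph1 KO. Its unscaled reads overlapped, but in CPM both Control libraries lay above both Dph1 KO libraries. It was not called (log2 fold change -0.53, edgeR quasi-likelihood, adjusted p = 0.127), and the log2 fold change was -0.68 without Dph1 KO replicate 2. The chemoreceptor group as a whole had 3 of 4 members tested and none called. The 2 translation factor copies had 1 tested and none called, and the 3 histone and chromatin protein copies likewise 1 and none.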

How the data were processed

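Liver RNA was sequenced as 4 stranded mRNA libraries, per the labels' protocols. The authors deposited 1 table per library with whole-number counts of total, unique, exon and intron reads per gene and a TPM column (transcript share by length); RPKM values and the fraction of unique or intron reads, which the authors deposited beside them, were not used. Aligner, counter and use of strand are given in no source used here; the genome build is GRCm38 (mm10), per the submitters' processing notes. Counts were tested with edgeR 4.0.16 (R 4.3.3; filterByExpr, TMM scaling, quasi-likelihood test, Benjamini-Hochberg threshold 0.05). CPM are TMM-scaled counts per 1000000 reads. Alternatives used other read classes, scalings, filters, DESeq2 1.42.0, limma-voom 3.58.1, a GC content and length offset (mgcv 1.9.3) and each library left out. The test was checked on simulated counts of the Dph1 KO against Control comparison with 13289 genes: of 50 changed genes per fold size, 34% were recovered at 2-fold, 98% at 4-fold and 100% at 10-fold. The changed genes had at least 1 read per 1000000, and all genes were given 1 common variation between libraries (18.45%). These shares therefore do not cover members at lower levels or with more variation between libraries. Transcripts were aligned with blastn 2.17.0 (e-value limit 1e-20), 56 of 59 members having a GENCODE sequence. Counting intervals and floors cover counting error only.

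Named in full were the members called, the 10 with most unique reads, the 6 with most reads among those with under 10% unique, the P450, major urinary protein and serpin copies, and the 3 members and 3 rows next to the minimum. The members and lists were chosen with earlier results of these data known. Parents are the genes of the symbol before -ps.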

Additional observations from a re-analysis of the deposited data

How the results depend on the processing

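With exon reads, total or unique, 0 members were called higher and 0 lower, since only 6 members reached 20 exon reads; 46 reached 20 unique gene reads. DESeq2 called 5 higher, giving no adjusted p for Mrpl48-ps, Cyp4f41-ps and Mup-ps19. Unique gene reads kept all 14 called members they could test, with no value for Rps18-ps3, Rpl35a-ps2 and Rps2-ps6. The GC content and length offset lost Mug-ps1 and Mup-ps19 and had no value for Rab11b-ps1. Genes called over all rows were 1640, and 3422 with library totals only, which moved the median log2 fold change from 0.04 to 0.30. Leaving out 1 library gave 528 (without Control replicate 2) to 5405 (without Dph1 KO replicate 2) genes, 749 without Control replicate 1, and 2 to 10 higher and 10 to 12 lower members. Without Control replicate 1, Pisd-ps1, Pisd-ps2, Rdh18-ps and Mup-ps19 were lost; without Control replicate 2, Adh6-ps1 and Cyp4f41-ps as well; without Dph1 KO replicate 2, Mup-ps19. The lone library left is assumed to vary like the other group. The median unique share was 98.6% over members with at least 100 reads, 0.485% with exon reads and 99.8% to 99.9% with 1 library left out. Pairs of one sign were 8 of 13 with unique reads. They were 12 of 21 without Control replicate 1 and 19 of 24 without Control replicate 2. Without Dph1 KO replicate 1 they were 13 of 23, and without Dph1 KO replicate 2 they were 20 of 23. Members not called changed sign with library totals only (Rps15a-ps5 0.16, Rpl31-ps12 0.071, Cyp21a2-ps 0.039) and with the offset (Atp6v0c-ps2 0.49, Rps15a-ps5 0.0035, Rpl31-ps12 0.10, Mup-ps1 -0.090, Cyp21a2-ps 0.35). With 1 library left out, log2 fold changes crossed 0 for Atp6v0c-ps2 (-0.82 to 0.51), Cyp2d36-ps (-0.28 to 0.61), Vmn2r-ps16 (-3.74 to 0.52), Rps15a-ps5 (-0.42 to 0.36), Mup-ps1 (-0.21 to 0.45) and Cyp21a2-ps (-0.62 to 0.31). Cyp2d37-ps passed the threshold with library totals only, with the offset and without Dph1 KO replicate 2. The cause was not tested. No paired analysis was possible because the labels carry no replicate numbers; those used here only name the libraries, in accession order. At 2 libraries per genotype, 2-fold changes were mostly missed in simulated counts.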

Other observations

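The rows around the 9 members with a 10-fold difference were read in the same fit. Within 500000 bases of them, 101 other rows were tested and 11 were called, 10.9%, against 12.3% of all rows tested. Pde6a was the 1 of 17 called near Rps2-ps10. Called were also 3 of 15 near Rps18-ps3, 2 of 11 near Rpl35a-ps2, 4 of 25 near Rab11b-ps2 and 1 of 6 near Rpl3-ps1. None of the 13 near Rab11b-ps1, of the 8 near Rps2-ps6 or of the 3 near either Glud-ps or Mrpl48-ps was called.

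A row just under the minimum of reads had the same kind of pattern in 1 library as Rpl3-ps1. Pcna-ps2, a copy of the gene of the sliding clamp of DNA replication, held 0, 18, 0 and 0 reads in Control replicates 1 and 2 and Dph1 KO replicates 1 and 2, every read unique.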
